A study of Caenorhabditis elegans with 2 samples.

Results

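The nuclear hormone receptor genes of Caenorhabditis elegans were examined for binding of TBX-7, a T-box transcription factor. All protein-coding genes of the WBcel235 annotation (ce11) whose symbol starts with nhr- were taken, which gave 269 of 19973 protein-coding genes. Occupancy had been measured by ChIP-seq, the sequencing of DNA that precipitates with a protein, in hermaphrodite late embryos of strain OP311, collected 3 hours after egg bleaching and used whole. Their exact age was unknown. This line stably expresses TBX-7 with a GFP-FLAG tag at its C terminus, and the precipitation used an antibody against GFP, while a further label field names tbx-7. The untagged protein was not measured. There was 1 group with 2 biological replicates, both read against the same control alignment, so no condition could be compared with another. Whole embryos mix all tissues, so a site bound in few cells and a weak site in many cells cannot be told apart.

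Nuclear hormone receptors are transcription factors with a zinc-finger DNA-binding domain and, in most members, a ligand-binding domain that can sense steroids, fatty acids or other small lipids. Nematodes carry far more of these genes than insects or vertebrates, mostly through expansion of a branch related to the vertebrate receptor HNF4, and many copies lie in tandem on chromosome V. A smaller group has clear relatives in other animals and acts in moulting, epidermal development, sex determination and the choice of dauer arrest. TBX-7 belongs to the T-box family, whose members bind DNA through a domain unrelated to that of the receptors.

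Nuclear hormone receptor genes rarely had a TBX-7 peak at their start. A promoter was the stretch between 1000 bp before and 200 bp after the annotated start, and a gene was called when the summit of a peak lay inside it. The authors' final list holds 690 peaks that agreed between replicates by the irreproducible discovery rate (IDR). In it 2 of 269 nhr genes were called, nhr-142 and nhr-255. That is 0.743% (exact 95% interval 0.0902 to 2.66%), against 3.12% of all protein-coding genes. The share was 0.236 times that of the other 19704 genes. Since the receptor family was picked with results of these data known, its shares are given beside those of all genes as a description and without a test. Intervals cover counting error only.

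The 4 IDR summits at nhr genes, those in the promoters of nhr-142 and nhr-255 and those in introns of nhr-17 and nhr-41, are shown because they are the only such peaks that the 269 genes held in the final list. Of the 4, 3 lay beside a transfer RNA (tRNA) gene. Each sequence is the plus strand of ce11 from 100 bp before to 100 bp after the summit, read from the RefSeq WBcel235 genome, and capitals mark bases inside an annotated tRNA gene.
nhr-142 promoter, chrV:5790919-5791119: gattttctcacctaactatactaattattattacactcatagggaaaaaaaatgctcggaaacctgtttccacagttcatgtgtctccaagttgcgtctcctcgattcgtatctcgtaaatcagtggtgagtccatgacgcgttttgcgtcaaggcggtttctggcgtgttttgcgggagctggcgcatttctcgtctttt
nhr-255 promoter, chrX:15741928-15742128: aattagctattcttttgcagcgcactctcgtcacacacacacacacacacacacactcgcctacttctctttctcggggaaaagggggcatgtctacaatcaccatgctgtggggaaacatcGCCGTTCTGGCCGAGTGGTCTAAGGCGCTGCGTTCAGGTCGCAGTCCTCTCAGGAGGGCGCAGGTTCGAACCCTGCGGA
nhr-17 intron, chrX:12665177-12665377: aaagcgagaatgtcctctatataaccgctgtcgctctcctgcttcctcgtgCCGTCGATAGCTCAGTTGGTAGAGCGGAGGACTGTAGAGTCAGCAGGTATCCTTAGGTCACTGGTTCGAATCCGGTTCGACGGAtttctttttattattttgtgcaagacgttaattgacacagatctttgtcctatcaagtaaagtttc
nhr-41 intron, chrIV:1388087-1388287: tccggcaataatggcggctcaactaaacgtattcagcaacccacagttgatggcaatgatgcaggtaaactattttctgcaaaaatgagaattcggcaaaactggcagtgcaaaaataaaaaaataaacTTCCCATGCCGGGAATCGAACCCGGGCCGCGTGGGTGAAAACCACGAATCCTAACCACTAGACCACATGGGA

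The capitals cover 79 bases of a tRNA-Leu gene at nhr-255, all 84 bases of a tRNA-Tyr gene at nhr-17 and all 72 bases of a tRNA-Glu gene, on the minus strand, at nhr-41. The nhr-142 window holds no annotated small RNA gene, which here means a gene for a tRNA, an rRNA, a snRNA or a snoRNA. The word GGTTCGA, part of the internal promoter element of tRNA genes called box B, was searched on both strands after the sequences had been seen. It occurred in the windows of nhr-255, nhr-17 and nhr-41 and in 70 of all 690 IDR windows of that length (10.1%). The T-box core GGTGT occurred within 50 bp of none of the 4 summits, on either strand, and within 50 bp of 119 of the 690 IDR summits (17.2%). The receptor half-site AGGTCA occurred within 50 bp of the nhr-17 summit, inside the tRNA-Tyr gene, and within 50 bp of 3.19% of IDR summits. These matches describe the windows and are not taken as binding sites.

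The nhr-142 peak was the strongest of the 4. It spanned V:5790797-5791240 with a signal of 154, on the scale of the authors' peak caller, and ranked 261 of 690. In replicate 1 its summit had a signal of 82.8 and rank 263 of 16060, and in replicate 2 a signal of 70.8 and rank 289 of 9840. Both replicate summits lay within 1 bp of the summit in the final list, and the ranks were similar. The summit was 466 bp upstream of nhr-142 (V:5785957-5790553, minus strand). It was closer to the neighbouring gene F44E7.9, whose start lay 211 bp away, and stood in the promoters of both genes.

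The nhr-255 peak (X:15741806-15742249) had a signal of 99.7 and ranked 536. Its summit was 582 bp upstream of nhr-255 (X:15742610-15744298, plus strand) and 22 bp from the tRNA-Leu gene WBGene00014626 (X:15742050-15742133, plus strand). In replicate 1 the nearest summit had a signal of 42.6 and rank 814 and lay 33 bp away. In replicate 2 it had a signal of 64 and rank 348 and lay 122 bp away, so it did not match within the 100 bp used here for the same summit. The peak thus ranked higher in replicate 2, with a shifted summit. No other protein-coding start was nearer than that of nhr-255.

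Both gene-body peaks lay in introns. The nhr-17 peak (X:12665055-12665498, signal 120, rank 408) had its summit inside the tRNA-Tyr gene WBGene00009555 (X:12665228-12665311), 2577 bp downstream of the nhr-17 start. In replicate 2 its signal was 68.2 with rank 315. Replicate 1 had 2 peaks that overlap it, with summits on either side of the tRNA gene. The stronger (X:12664933-12665356) had a signal of 56.6 and rank 516, and the one with the nearer summit, 92 bp away, had a signal of 34 and rank 1278. Of the 31-base words within 50 bp of this summit, 90.1% recur elsewhere in the genome, so reads there are uncertain. Such words also made up 78.9% around the replicate 2 summit at nhr-41 and 52.1% around the replicate 1 summit at nhr-255, against 5.63% around the final summit of each. The nhr-41 peak (IV:1387965-1388408, signal 108, rank 481) was 29 bp from the tRNA-Glu gene WBGene00023202 (IV:1388216-1388287) and 1972 bp downstream of the nhr-41 start. Its signal was 50 with rank 625 in replicate 1 and 57.7 with rank 415 in replicate 2. The gene nhr-41 is a relative of the vertebrate orphan receptors TR2 and TR4, and it was the only receptor of the conserved group with an IDR summit in the gene. When the starts of all annotated transcripts were used in place of the gene start, this summit fell in an nhr-41 promoter and 3 nhr genes were called.

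No receptor gene therefore combined an IDR promoter summit with a start nearest to that summit and no small RNA gene within 200 bp. That combination was put together after these peaks had been seen, so the count of 0 describes the 2 called genes and nothing is read from it. Gene bodies were called about as often in nhr genes as elsewhere. In the final list 2 of 269 nhr genes had a summit between start and end (0.743%, exact 95% interval 0.0902 to 2.66%), against 0.916% of all genes. Per Mb of gene body there were 2.16 IDR summits in nhr genes, from 2 summits, and 3.2 in the others. Of all 690 IDR summits, 130 (18.8%) lay within 200 bp of a small RNA gene.

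The distance from receptor starts to the nearest IDR summit gave the same order. It ran from 466 to 584166 bp with a median of 96608 bp, against a median of 57202 bp for other genes. Outside chromosome V the medians were close, 52868 bp for 102 nhr genes and 52430 bp for the others. On chromosome V they were 121045 and 76605 bp. Within 5 kb lay a summit for 8 nhr genes (2.97%, against 8.36% of other genes), and 5 of those 8 summits stood beside a small RNA gene.

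The nearest IDR summits that were in neither promoter nor gene were those of nhr-281, nhr-102, nhr-11, nhr-20 and nhr-114. The summit near nhr-281 (signal 124) was 2222 bp upstream of the start, 22 bp from a tRNA-Arg gene and in the promoter of F28H6.7. The summit near nhr-102 (signal 227) was 2441 bp downstream of the start and beyond the end of the gene, 41 bp from the small nucleolar RNA gene T06C12.16. The summit near nhr-11 (signal 252) was 4413 bp downstream of the start, in the promoter of mppb-1, which encodes a subunit of the mitochondrial processing peptidase. The summits near nhr-20 (signal 88.9) and nhr-114 (signal 193) were 4663 and 5292 bp upstream of the start. Neither lay beside a small RNA gene or in the promoter of another gene. The start nearest to each was that of the receptor itself, and the summit near nhr-114 lay in an intron of Y45G5AM.9. Each of these summits was matched within 100 bp in both replicate lists.

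The lists made before the IDR test are permissive and consist mostly of weak peaks, so they are read here only beside the share over all genes in the same list. In the list of 8759 peaks called on both replicates together, 25 of 269 nhr genes had a promoter summit (9.29%, exact 95% interval 6.1 to 13.4%), against 15.8% of all genes. In replicate 1, with 16060 peaks, 54 were called (20.1%, 15.5 to 25.4%), against 24.7%. In replicate 2, with 9840 peaks, 24 were called (8.92%, 5.8 to 13%), against 16.3%. The share of nhr genes relative to the others was 0.585 in the list of both replicates, 0.811 in replicate 1 and 0.542 in replicate 2, so in all 3 lists it was nearer to 1 than in the final list.

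Over all chromosomes, gene bodies of nhr genes in these lists held summits about as often as those of other genes. A gene body runs from start to end, so a summit in its first 200 bp counts in promoter and body alike. The list of both replicates had a summit in the body of 48 nhr genes (17.8%, exact 95% interval 13.5 to 23%), against 18.1% of all genes. Replicate 1 had 82 (30.5%, 25 to 36.4%), against 30.4%, and replicate 2 had 50 (18.6%, 14.1 to 23.8%), against 21.2%. The median nhr gene was 2310 bp long and the median other gene 2020 bp. Per Mb of gene body there were 69.2 summits of both replicates in nhr genes and 80.3 in the others. The values were 131 and 153 in replicate 1 and 80 and 93.6 in replicate 2. The interval of each body share contained the share over all genes, whereas the promoter interval lay below it in the final list, in the list of both replicates and in replicate 2. In replicate 1 the promoter interval contained it. These intervals are no test, and the share over all genes takes no account of chromosome. On chromosome X the nhr body shares were higher than those of the other genes in each list. In the list of both replicates the interval still contained the share of the others, and in the replicate lists it lay above it. There the bodies of 34.8% of 23 nhr genes held a summit of both replicates (exact 95% interval 16.4 to 57.3%), against 19% of the other genes. The shares on X were 60.9% (38.5 to 80.3%) against 32.4% in replicate 1 and 43.5% (23.2 to 65.5%) against 22.1% in replicate 2. The median nhr gene on X was 4483 bp long and the median other gene there 2531 bp. Per Mb of gene body, nhr genes on X held 66.3 summits of both replicates and other genes there 72.8. In replicate 1 it was 133 against 140. The order was reversed in replicate 2, with 90 against 83.5, and in the final list, with 4.74 (from 1 summit) against 2.54. On III, 4 of 8 nhr genes had a body summit of both replicates (50%, 15.7 to 84.3%), against 23% of the others. The shares on III were 37.5% against 36.9% in replicate 1 and 25% against 26.6% in replicate 2.

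**Figure D1:**
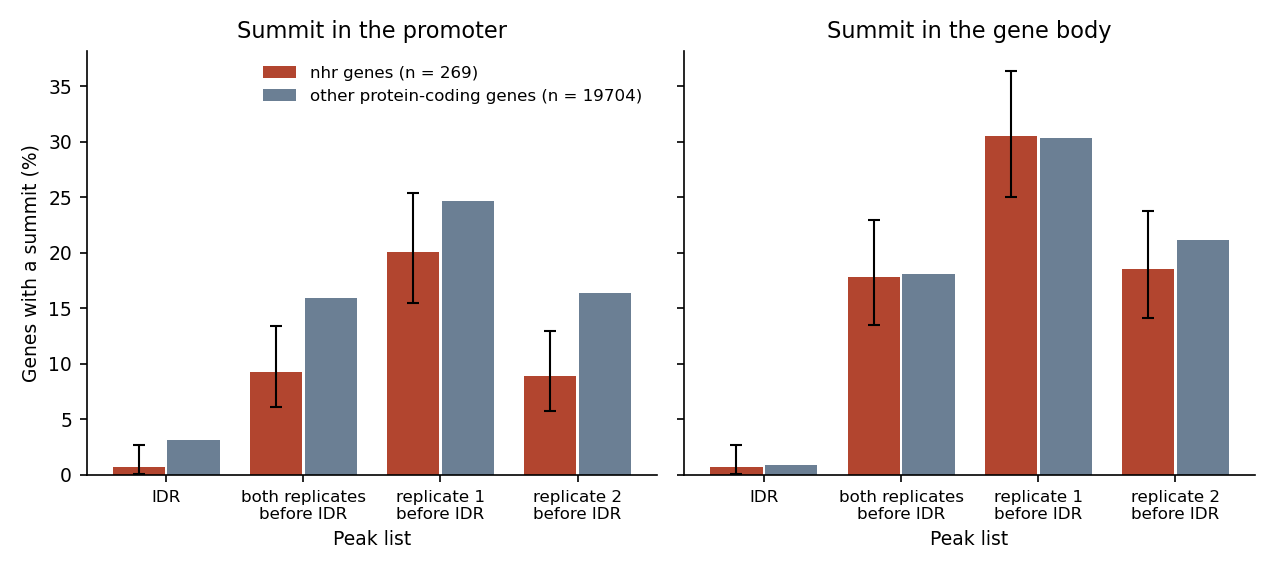
Share of genes with a summit in the promoter (left) or gene body (right), in percent, for 269 nhr genes and 19704 other protein-coding genes in the 4 peak lists. Error bars are exact 95% binomial intervals of the nhr share. In promoters the nhr bar is lower in each list, from 0.743% against 3.15% in the IDR list to 20.1% against 24.7% in replicate 1, while in gene bodies the bars are close.

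When only peaks with a −log10 q of at least 2 were kept, 905 peaks remained in the list of both replicates. They include all 690 final peaks, which are the 690 strongest of that list. Its call of the same genes was thus fixed in advance. The replicate lists also went into the final list, so none of these counts is separate evidence. Both replicates together called nhr-142 and nhr-255 (0.743%, against 3.71% of all genes). Replicate 2 called the same 2 genes (0.743%, against 2.82%). Replicate 1 called these and nhr-47 (1.12%, against 4.14%).

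The ratio of the nhr share to that of other genes was lowest among the strongest peaks in all 3 lists. Among those peaks it rests on 2 nhr genes in both replicates together, 1 in replicate 1 and 2 in replicate 2. Promoter summits were divided by the rank of their peak in the list of both replicates. Peaks of rank 1 to 690 lay in the promoters of 0.743% of nhr genes and 3.15% of the others, and peaks of rank 691 to 3000 in 1.86% and 5.34%. At rank 3001 to 6000 the shares were 3.35% and 4.56%, and at rank 6001 to 8759 they were 3.72% and 4.05%. The ratio of nhr to other genes thus rose from 0.236 through 0.348 and 0.734 to 0.918. The nhr genes called were 2, 5, 9 and 10. The first range holds the 690 peaks of the final list and so repeats its result. In replicate 1 the ratio was 0.119, 0.631, 0.959 and 0.963 over the 4 ranges. In replicate 2 it was 0.246, 0.255, 0.853 and 0.539, so there the weakest peaks did not continue the rise.

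**Figure D2:**
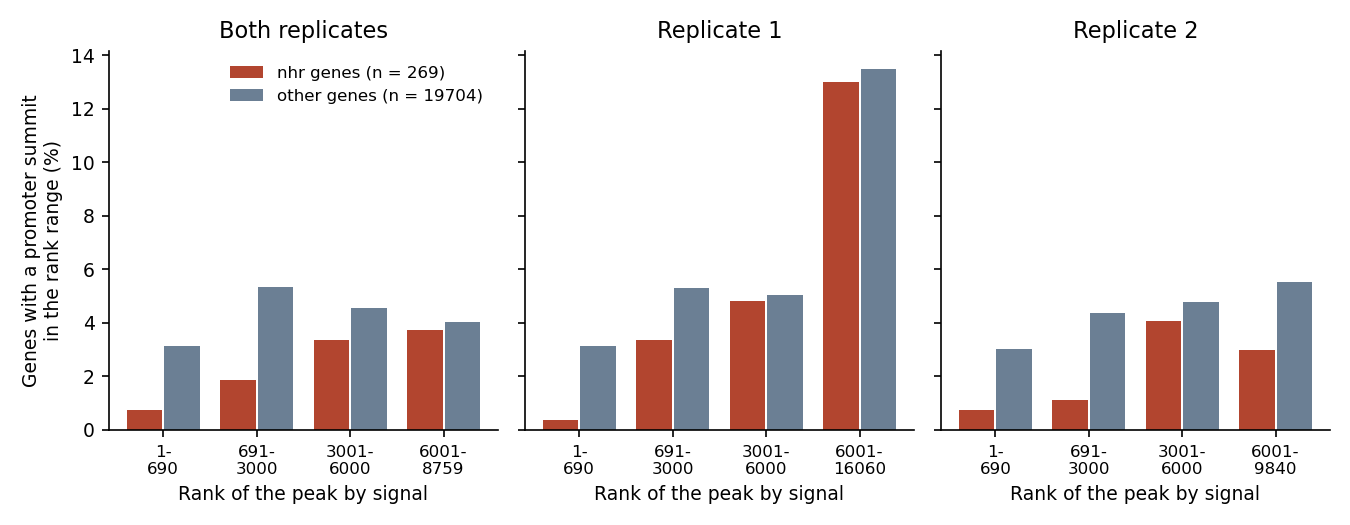
Share of genes, in percent, with a promoter summit whose peak fell in the rank range on the horizontal axis, for the list of both replicates and for each replicate (269 nhr and 19704 other genes). In the list of both replicates the nhr bars rise from 0.743% to 3.72% while those of the other genes lie between 3.15% and 5.34%.

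Around gene starts, summits of the list of both replicates were counted in bins of 500 bp. Other genes had 10.4 summits per 100 genes in the bin just upstream of the start, and 5.22 and 4.3 in the bins on either side of it. Receptor genes had 4.46 per 100 in the bin just upstream, from 12 summits, with 2.97 before it and 4.83 after it. Their profile had no comparable peak at the start. In the final list the bin just upstream held 0.372 summits per 100 nhr genes, from 1 summit, and 2.48 per 100 other genes. On chromosome V alone, in the list of both replicates, it held 4.19 per 100 nhr genes and 7.44 per 100 others.

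**Figure D3:**
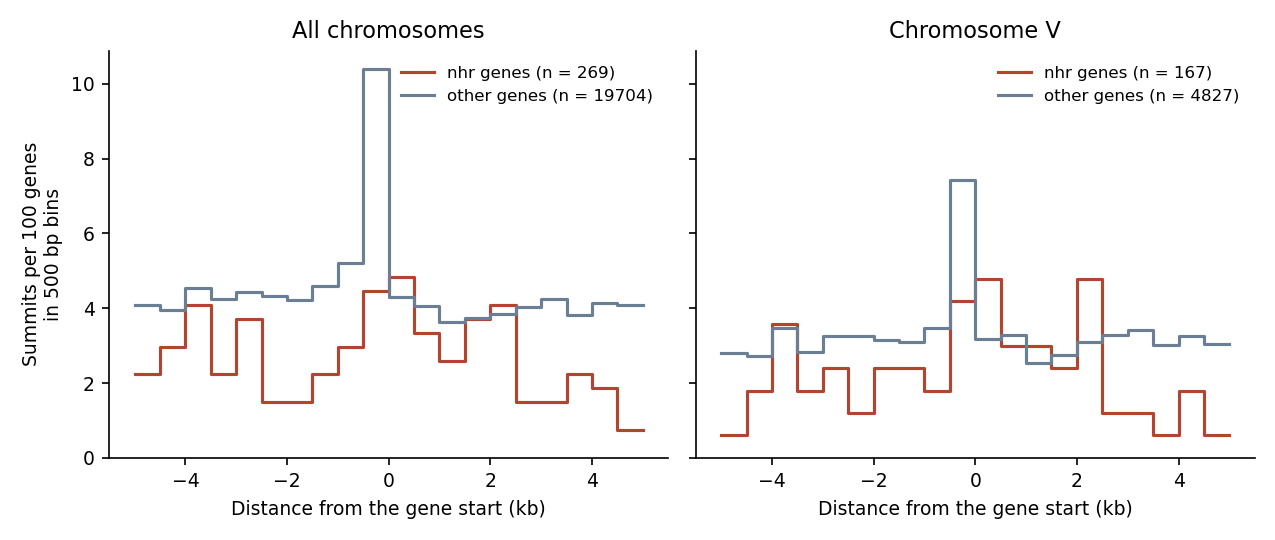
Summits of both replicates before the IDR test per 100 genes, in 500 bp bins from 5 kb upstream (negative) to 5 kb downstream of the gene start, for nhr genes and other protein-coding genes, on all chromosomes (left) and chromosome V (right). Other genes reach 10.4 per 100 just upstream of the start, where nhr genes have 4.46.

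The receptor genes were unevenly spread over chromosomes, and so were the peaks. Chromosome V held 167 of the 269 genes (62.1%), IV held 33, I and X held 23 each, II held 15 and III held 8. On V, 1 of 167 nhr genes had an IDR promoter summit (0.599%, exact 95% interval 0.0152 to 3.29%), against 2.12% of all genes of that chromosome. On X it was 1 of 23 (4.35%, 0.11 to 21.9%), against 1.72%. No nhr gene was called on the other chromosomes, where the shares of all genes were 4.00% on I, 3.57% on II, 5.15% on III and 2.93% on IV. For chromosomes I to IV together, no nhr gene of 79 was called (exact 95% interval 0 to 4.56%), and the other genes there had 3.86%, which lies inside that interval.

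Had the nhr genes of each chromosome been called at the share of the other genes of that chromosome, 6.88 would have been called, and 2 were, a ratio of 0.291. Without regard to chromosome the number was 8.48. For both replicates together 35.8 were given by chromosome shares and 25 were called (ratio 0.698), in replicate 2 38.1 and 24 (0.63), and in replicate 1 56.3 and 54 (0.958). As a share of all nhr genes, the number from chromosome shares lay inside the exact interval of the nhr share in the final list. The same held in the list of both replicates and in replicate 1, while in replicate 2 it lay above the interval. The same reckoning for gene bodies gave 1.96 and 2 in the final list and 41.7 and 48 in the list of both replicates.

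By chromosome, the list of both replicates called 13 of 167 nhr genes on V (7.78%, exact 95% interval 4.21 to 12.9%), against 11.1% of all genes there. It called 3 of 23 on I (13%, against 21.2%), 1 of 15 on II (6.67%, against 16.3%) and 1 of 8 on III (12.5%, against 21.1%). On IV it called 3 of 33 (9.09%, against 14.3%), and on X 4 of 23 (17.4%, against 14.7%). The nhr share in this list was below that of all genes on 5 of 6 chromosomes and above it on X. The replicates differed on X, with 34.8% against 24.6% of the other genes in replicate 1 and 8.7% against 14.8% in replicate 2. On III, replicate 1 had 37.5% of nhr genes against 31.4%. On each of the 6 chromosomes, V included, the exact interval of the nhr share in the list of both replicates contained the share over all genes there, and the same held in the final list.

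**Figure D4:**
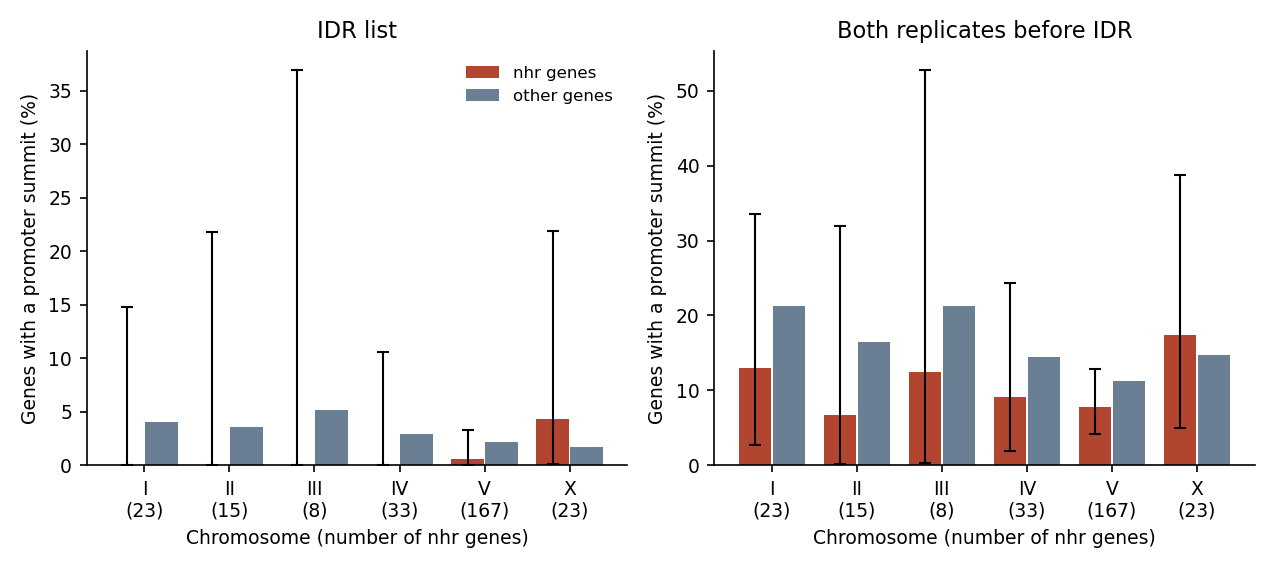
Share of genes with a promoter summit by chromosome, in percent, for nhr genes (their number in parentheses) and other protein-coding genes, in the IDR list (left) and in the list of both replicates before the IDR test (right). Error bars are exact 95% binomial intervals of the nhr share. In the IDR list nhr genes were called on V and X only, and in the list on the right X alone has a higher bar for nhr genes.

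On chromosome V the receptors were called about as often as the genes beside them, though few calls underlie this. Of 173 other protein-coding genes of V that lie next to an nhr gene, 1 had an IDR promoter summit (0.578%), and this was F44E7.9, by the summit it shares with nhr-142. The list of both replicates called 6.36% of these neighbours and 7.78% of the nhr genes. Over all chromosomes, 4 of 335 neighbours were called in the final list (1.19%). The other 3 were rps-28, which encodes a ribosomal protein, mppb-1 and F28H6.7. In the outer parts of V, beyond the stretch from 25 to 75% of its length, no nhr gene was called in the final list (exact 95% interval 0 to 3.27%), against 1.15% of the others. There the list of both replicates called 9.01% of nhr genes and 9.03% of the others. In the central part of V it called 3 of 56 nhr genes (5.36%, exact 95% interval 1.12 to 14.9%). The share of the others there was 13%, inside that interval. The final list called 1 nhr gene in the central part (1.79%, 0.0452 to 9.55%), against 3.08% of the others.

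Receptor genes also differed from others in how they lie on the chromosome, by features that the symbol did not use. Of the 269, 137 (50.9%) had another nhr gene as a direct neighbour. The sequence upstream to the next protein-coding gene was 1590 bp at the median, against 929 bp. In 22 nhr promoters (8.18%) lay the start of another protein-coding gene, against 21.5% of other promoters. Among promoters without a further start, 1 of 247 nhr genes was called in the final list (0.405%), against 1.74%. Among those with one, it was 1 of 22 (4.55%), against 8.33%. The word GGTGT stood in 70.6% of nhr promoters and 70.8% of the others, and AGGTCA in 26.8% and 26.7%. On average 5.48% of the 31-base words of an nhr promoter recur in the genome, against 5.95% elsewhere.

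The 25 nhr genes called in the list of both replicates held 27 promoter summits. Their signal ran from 33.3 to 154 with a median of 37.9, against a median of 44.4 for the 2768 summits in all promoters. For 8 of the 27 (29.6%) each replicate list had a summit at most 100 bp away, against 45.3% in all promoters. In 3 of the 27 neither replicate list had one. Within 50 bp, 7 of the 27 held GGTGT (25.9%), against 14.7% of all 8759 summits of that list, and 1 held AGGTCA.

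The 8 summits matched in both replicates belonged to 7 genes. After nhr-142 the strongest was at nhr-47 on V, with its summit 35 bp downstream of the start and also in the promoter of dnj-19, a DnaJ co-chaperone gene. Its signal was 73, with 46.4 in replicate 1 and 25.8 in replicate 2, and ranks of 912, 705 and 3526. The peak was thus much further down the list of replicate 2 than that of replicate 1. Next came nhr-217 on I, 396 bp upstream of the start, with signals of 56.8, 30.5 and 24.1 in the same order.

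The summit at nhr-59 on V lay 52 bp upstream of the start, with signals of 54.7, 20.7 and 26.9, and was shared with fbxa-137, an F-box gene. The gene nhr-121 on III had a pair of summits, 854 and 590 bp upstream, with signals of 51.3 and 43.8. The remaining matched summits were at nhr-201 on V (910 bp upstream, signal 37.5) and nhr-78 on IV (897 bp upstream, signal 36.7). In the list of both replicates, the highest −log10 q among the 6 genes besides nhr-142 was 1.98, at nhr-47. In replicate 1 the nhr-47 peak had 2.45.

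**Figure D5:**
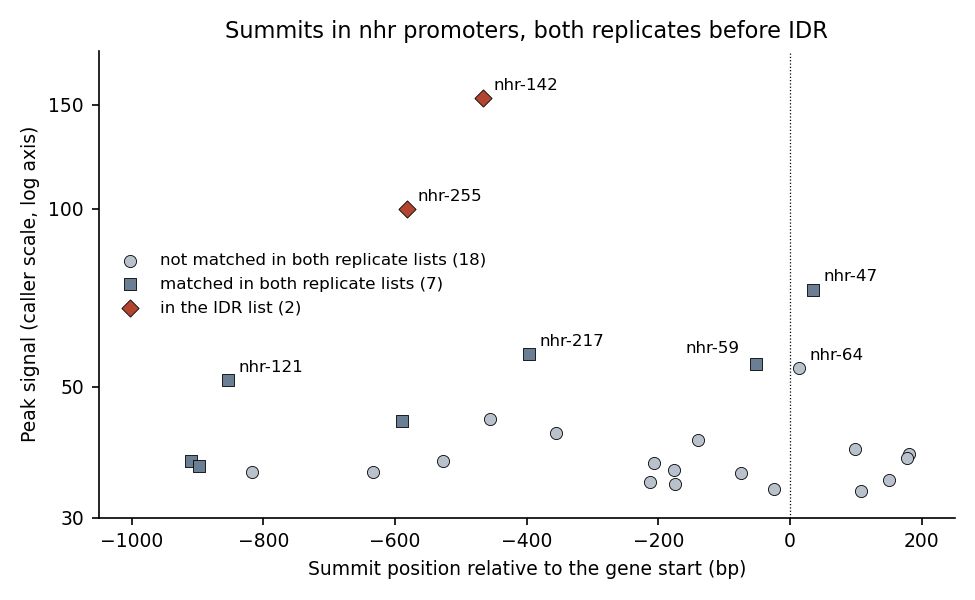
The 27 summits in nhr promoters from the list of both replicates before the IDR test, by position relative to the gene start (bp, negative is upstream) and peak signal (caller scale, log axis). Diamonds are the IDR peaks of nhr-142 (signal 154) and nhr-255 (99.7), squares are other summits matched within 100 bp in both replicate lists, and circles are the rest.

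Outside the promoter of the same gene, the list of both replicates held 57 summits in the bodies of 42 nhr genes. Those in introns of nhr-87 and nhr-202 also lay in the promoters of nhr-146 and nhr-201, so they are among the 27 promoter summits too. The signal of the 57 ran from 32.9 to 120 with a median of 37. Introns held 37 of them, coding exons 16 and untranslated exons 4. Beside a small RNA gene lay 3, where 5.07% of all summits of that list did. After nhr-17 and nhr-41 the strongest was at nhr-119, in an untranslated exon, with a signal of 84.4 and rank 716. It ranked 771 in replicate 1 and 668 in replicate 2. In the list of both replicates it thus lay just past the 690 peaks of the final list.

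Receptors with relatives in other animals were described as a separate group of 15 genes, of which 11 carry nhr symbols. None of the 15 had an IDR summit in the promoter of the gene start, where 3.12% of all genes had one. The nearest lay between 1972 bp (nhr-41) and 432659 bp (nhr-91) away, with a median of 56398 bp. Before the IDR test 3 were called on both replicates together, nhr-64, nhr-25 and nhr-48, against 15.8% of all genes. The gene nhr-64, related to HNF4, had a summit 13 bp downstream of its start (signal 53.7), matched in replicate 2 (30.8). Replicate 1 had a pair of promoter summits, 90 bp upstream and 116 bp downstream of the start (23.3 and 15), both just beyond the 100 bp used for a match. The gene nhr-25, related to the fly factor Ftz-F1 and needed for epidermal development, had one 150 bp downstream (signal 34.8), matched in replicate 1 only (23.9). The gene nhr-48, a relative of daf-12, had one 527 bp upstream (signal 37.4), also matched in replicate 1 only (25.5).

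These 11 genes with nhr symbols were longer than the other receptors. Their median length was 5531 bp against 2266 bp, their median upstream sequence was 5584 bp against 1517 bp, and 1 of 11 lay on V against 166 of 258. On both replicates together 27.3% of the 11 (3 genes) and 8.53% of the 258 had a promoter summit, against 15.8% of all genes. In the gene body 36.4% (4 genes) and 17.1% had one, against 18.1% of all genes. Replicate 1 called 54.5% (6 genes) and 18.6% in promoters, against 24.7% of all genes. Replicate 2 called 9.09% (1 gene) and 8.91%, against 16.3% of all genes. The promoter difference thus appeared in replicate 1 and not in replicate 2, and with 11 genes nothing is read from it. Besides nhr-41, gene-body summits of both replicates were listed for nhr-64, nhr-25 and nhr-23, a relative of ROR. That of nhr-64 is the same summit, 13 bp downstream of the start, that is counted in its promoter. Replicate 1 alone had body summits in nhr-48, in nhr-85, a relative of Rev-erb, in nhr-91, a relative of GCNF, and in unc-55, a relative of COUP-TF. No summit of any list lay in the promoter or body of nhr-6, nhr-8, nhr-67 or nhr-111.

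Of the 5 receptor genes with other symbols, daf-12, fax-1, odr-7, sex-1 and unc-55, none had a promoter summit in any of the 4 lists, where 31% of the genes without an nhr symbol had one in at least 1. Gene-body summits of both replicates, none of them in the final list, were found in 3 of the 5, against 18.1% of all genes. With 5 genes nothing is read from this count. In daf-12, the receptor of dafachronic acids, the signal was 71.1. This gene is 30968 bp long, where the median gene without an nhr symbol had 2020 bp. In sex-1, which acts in reading X chromosome dose, the signal was 65.8. In fax-1, which acts in neuron identity, it was 35.3. The median signal of the list of both replicates was 40.5, so daf-12 and sex-1 stood above it and fax-1 below it. The sex-1 summit was matched in both replicates (27.4 and 39.6), and those of daf-12 and fax-1 in replicate 1 only.

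Among 18 receptors with known roles in metabolism and stress, none was called in the final list, against 3.12% of all genes. The list of both replicates called 1, against 15.8% of all genes. This was nhr-69, with a summit 181 bp downstream of its start (signal 38.4). Gene-body summits were listed for 6 (18.1% of all genes had one), among them nhr-80, which controls fatty acid desaturation, and nhr-88. The 6 include nhr-69, by the same summit as in its promoter. No promoter summit was listed for nhr-49, the main regulator of fat use among these receptors, in any list. Of 9 receptors with roles in development, none was called in the final list and nhr-25 in that of both replicates, against 3.12% and 15.8% of all genes. With lists this short, nothing is read from such counts. The nearest IDR summit to a gene of that list lay 13670 bp from its start, at nhr-2, which acts in the early embryo.

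Genes that work with the receptors gave a few calls. Of 11 genes for hormone synthesis, sterol transport and cofactors, 2 had an IDR promoter summit, against 3.12% of all genes, and both were cofactors. The gene cbp-1, which encodes a histone acetyltransferase of the CBP/p300 kind, had a peak at III:9765390-9765833 with its summit 897 bp upstream. Its signal was 147 (rank 288), with 94.9 in replicate 1 and 54.9 in replicate 2. The gene din-1, which encodes a corepressor that binds DAF-12, had a peak at II:11634022-11634465 with its summit 635 bp upstream. Its signal was 100 (rank 534), with 33 in replicate 1 (rank 1367) and 72.7 in replicate 2 (rank 272). The hormone synthesis genes daf-9, daf-36, dhs-16 and hsd-1 had no IDR summit in the promoter or gene, and neither did mdt-15, a Mediator subunit that works with nhr-49.

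Of 10 genes known as receptor targets in fat and propionate metabolism, 1 had an IDR promoter summit, against 3.12% of all genes. This was hach-1, an enzyme of propionate breakdown, with a peak at III:5554906-5555349 of signal 137, matched at 68.5 in replicate 1 and 67.5 in replicate 2. The summit lay 322 bp upstream of hach-1 and closer to the neighbouring gene nmad-1, whose promoter it shares. The list of both replicates also called cpt-2, a carnitine palmitoyltransferase gene (signal 62.8, shared with the promoter of C08F8.9), but every 31-base word near that summit recurs elsewhere in the genome. The desaturase genes fat-5, fat-6 and fat-7 and the gene acdh-1 had no promoter summit in any list.

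Over all 4 lists, 66 of 269 nhr genes had a promoter summit in at least 1 (24.5%, against 31% of the others) and 203 had none. A promoter summit in both replicate lists was found for 13 (4.83%, against 10.6%). For 138 nhr genes (51.3%) no list held a summit in the promoter or the gene body, against 46.8% of the others.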

How the data were processed

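Per the file notes deposited beside the lists, the peaks of a replicate were derived from its own alignment and 1 control alignment, those of both replicates from all 3 alignments, and the final IDR list from these 3 lists. The aligner, caller and read depth are not given in the sources used here. The 4 narrowPeak lists on ce11 were used. Column 7 holds the peak signal and column 9 the −log10 of the q-value, both as deposited by the authors and set within a list. Signal was used only to rank and describe peaks within its list. The ce10 lists were not used.

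Summits (start plus column 10) were placed on Ensembl release 115 gene models of WBcel235, which is ce11, with 1-based positions, using Python 3.11.15, pandas 2.3.3 and scipy 1.17.1. No correction for depth was possible. Sequence came from RefSeq. Named genes were all nhr genes with an IDR summit in promoter or body, at most 12 with a promoter summit of both replicates matched within 100 bp in each replicate list, at most 5 nearest to other IDR summits, and conserved receptors with any summit. Members and lists were chosen with earlier results of these data known. The placement of summits was tested on simulated data. Alternatives were other promoter windows, any transcript start, nearest starts, fewer peaks, each replicate alone and other strata. Those on families, recurring words, the permissive replicate lists and the combined rule were chosen after seeing the data.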

Additional observations from a re-analysis of the deposited data

How the results depend on the processing

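The share of nhr genes with an IDR promoter summit ran from 0% to 1.12% over the alternatives, and its ratio to the share of other genes from 0 to 0.329, so it was below 1 under each. The value of 0% (ratios 0 and 0) came from giving each summit to the nearest start and leaving out summits near small RNA genes, together, since that rule removes both called genes. The gene nhr-142 was lost when summits went to the nearest start, and nhr-255 in a narrow window (500 bp before to 100 bp after the start), in the stronger 345 peaks, without summits near small RNA genes and without replicate 2. With 1 to 3 genes called, 1 gene decides each value. Without replicate 1 or replicate 2, as the 690 strongest peaks of the other, the share was 0.743% or 0.372%, its ratio to other genes 0.246 or 0.119, and the ratio to the number from chromosome shares 0.307 or 0.149. Over all alternatives that last ratio ran from 0 to 0.402, the highest with the starts of all transcripts. It was 0.32 with position on the chromosome as a further stratum and 0.347 with upstream length. Without the large families of chemoreceptors, F-box proteins and lectins it was 0.25.

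In the list of both replicates the share of 9.29% became 0.743% with a −log10 q of at least 2 and 5.2% in the narrow window, as fewer peaks or bases count by construction, and 8.92% or 20.1% without replicate 1 or replicate 2. The gene-body share was 1.12% or 0.743% without replicate 1 or replicate 2. No paired analysis was possible because there was 1 group. Read depth is unknown, so weak binding below the authors' thresholds was not detectable here.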
